A study of Mus musculus with 6 samples.

Results

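Zymogen granules are the storage vesicles of the pancreatic acinar cell, and the 9 genes described here are granule genes in a wide sense. Gp2, Zg16, Sycn and Cuzd1 encode proteins of the granule membrane or matrix. Pdia2, Erp27, Tmed6 and Tmed11 encode proteins of the endoplasmic reticulum and early secretory pathway. Umod, best known from kidney, is included as the paralog and chromosomal neighbour of Gp2. They were chosen by symbol, as Gp2, Umod, Zg16, Sycn, Cuzd1, Pdia2, Erp27, Tmed6 and Tmed11, and all 9 were found among the 23337 symbols of the count tables. RNA of whole pancreas was sequenced from NMRI mice at postnatal day 7, in 3 control and 3 mutant libraries. Controls had the genotype Ptf1a cre/+, in which 1 allele of the acinar transcription factor gene Ptf1a carries the Cre recombinase, so both groups share this allele. Mutants were Ptf1a cre/+ as well and carried in addition the transgene CAG-loxP-STOP-loxP-Prox1-LacZ, from which Cre removes a stop sequence and the general CAG promoter then drives Prox1 and LacZ. Because Ptf1a is active in early pancreatic progenitors as well as in acinar cells, the lineage with an active transgene is not restricted to acinar cells. The design text speaks of control pools and of single mutant pancreata, while the extraction protocol speaks of single organs, so pooling and genotype cannot be told apart.

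As background, acinar cells fold digestive enzymes in the endoplasmic reticulum, pass them through the Golgi and pack them into granules whose membrane fuses with the apical surface when the cell is stimulated. Glycoproteins, lectins and proteoglycans line the inner face of the granule membrane, and they are released or shed with the enzymes. Protein disulfide isomerases form and rearrange the disulfide bonds of the cargo, and p24 proteins act as cargo receptors between the endoplasmic reticulum and the Golgi.

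Prox1, a homeobox factor, had 9.25 ± 1.49 CPM (SD, n = 3) in controls against 29.2 ± 3.25 CPM in mutants, where CPM is the count divided by the library size after TMM scaling, an adjustment of library sizes for differences in composition. Its log2 fold change was 1.67 ± 0.15 (SE; edgeR adjusted p = 0.000239), and transgene and endogenous transcripts were not separated. Total counts lay between 7304727 and 10773223 per library. Control 1 was the only library with Xist in number (7110 counts, at most 4 in the others) and without Y-linked counts, so it differs in sex from the other 5 libraries. The tissue label matched its defining markers, since the 10 acinar markers summed to between 384929 and 429279 CPM in controls and between 325184 and 380963 CPM in mutants. Fewer cells of a type and less RNA per cell cannot be told apart in these bulk samples.

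The granule genes split by size of change. Gp2 and Zg16 were almost lost from mutant pancreas, 54.1-fold and 27.7-fold lower. Umod, at about 1 to 2 CPM in controls, also fell. Erp27 and Tmed6 were each 1.53-fold lower, and Sycn, Cuzd1, Pdia2 and Tmed11 did not pass the test. Of the 9 genes, 5 were lower and 0 higher by edgeR at an adjusted p under 0.05, beside 2.06% called among the 13017 genes tested, 1.51% lower and 0.545% higher. With library sizes left unscaled, 190 genes were higher and 130 lower in place of 71 and 197. At an unadjusted p under 0.05, 7 were lower and 0 higher, beside 7.36% lower and 5.41% higher of all genes tested. DESeq2 called 7 lower and 0 higher, beside 1.89% and 0.691%. All 9 passed the filter on low counts, but Umod passed through its control libraries alone and had to differ. In 7 genes every mutant library lay below every control library, which holds for 9.86% of the genes tested, or 19% with both directions counted. The median log2 fold change of the 9 genes was -0.61, beside 0.00 over all genes tested. Without control 1, control 2, control 3, mutant 1, mutant 2 or mutant 3 the number called lower was 4, 3, 3, 2, 5 and 3, beside 1.1%, 0.737%, 0.796%, 0.765%, 1.53% and 1.02% of all genes tested in these fits. Among the 5 libraries of 1 sex, without control 1, the log2 fold changes were -5.94 for Gp2, -4.74 for Zg16, -3.74 for Umod, -0.53 for Erp27, -0.56 for Tmed6, -0.52 for Pdia2, -0.52 for Sycn, -1.13 for Tmed11 and 0.43 for Cuzd1.

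**Figure D1:**
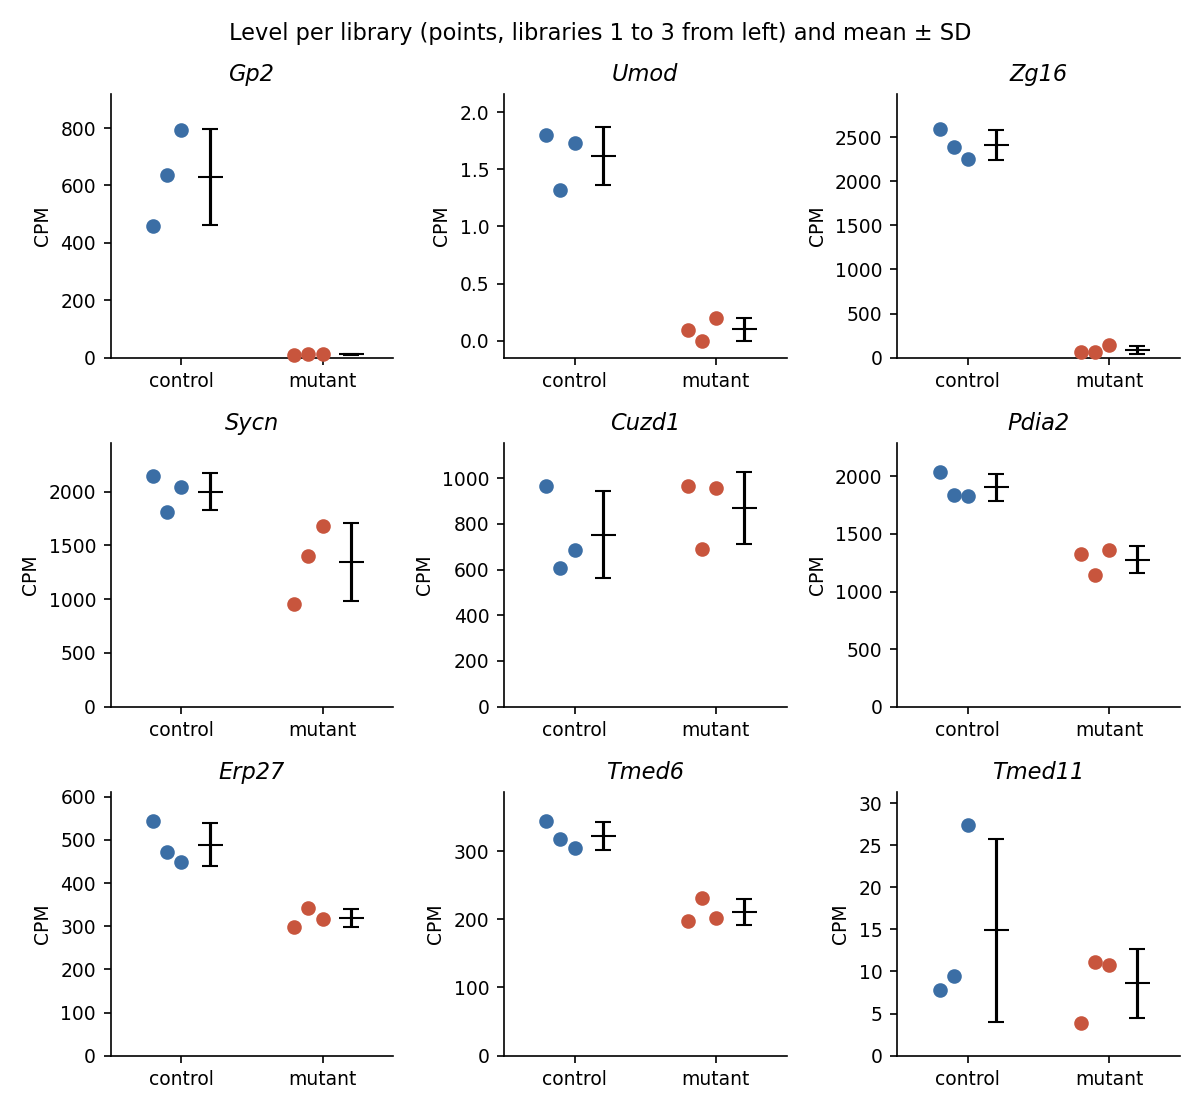
Level of each granule gene in CPM (vertical axes, linear, differing between panels) in the 3 control libraries (blue) and 3 mutant libraries (red), with libraries 1 to 3 from left to right and the mean ± SD at the right of each group. Mutant points of Gp2, Zg16 and Umod lie near 0, those of Sycn, Pdia2, Erp27 and Tmed6 lie below all control points at a smaller distance, and those of Cuzd1 and Tmed11 overlap with controls.

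**Figure D2:**
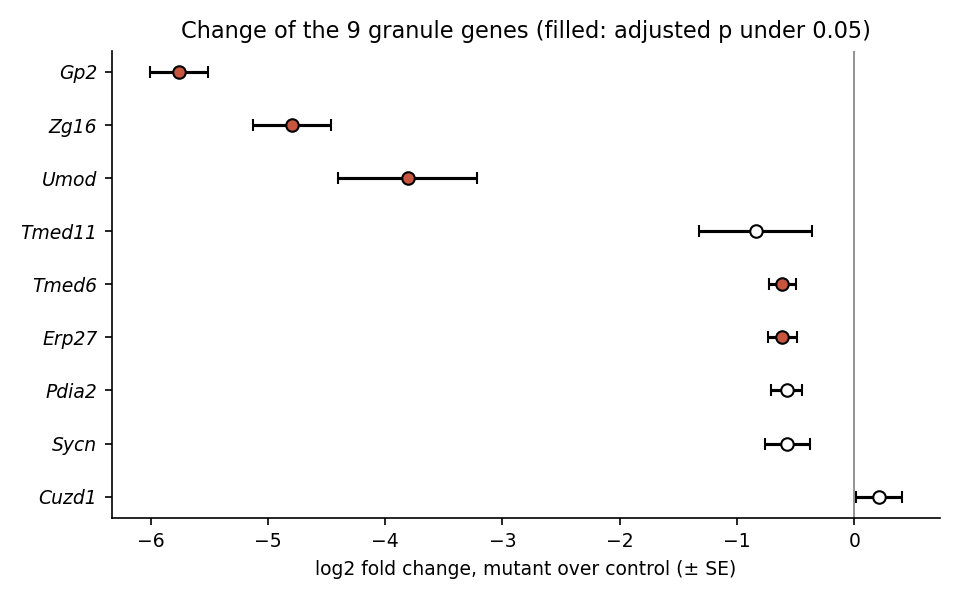
Fitted log2 fold change of each granule gene, mutant over control (horizontal axis), with bars of ± 1 SE; filled points passed the edgeR test at an adjusted p under 0.05. Gp2 (-5.76), Zg16 (-4.79) and Umod (-3.81) stand far to the left, and the other 6 genes lie between -0.84 and 0.21.

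Gp2 encodes glycoprotein 2, the main glycoprotein of the granule membrane, held there by a lipid anchor and shed into the juice. It lies at chr7:119442537-119459285 on the minus strand (GRCm38, protein coding, ENSMUSG00000030954.10). Gp2 was at 458, 635 and 794 CPM in controls 1 to 3 and at 9.13, 13.7 and 12.2 CPM in mutants 1 to 3. The groups were far apart, and the lowest control, the female control 1, still stood well above every mutant. The underlying counts were 3051, 5760 and 8273 in controls and 96, 118 and 122 in mutants. The log2 fold change was -5.76 ± 0.25 (SE, edgeR adjusted p = 3.64e-06), the fourth lowest log2 fold change among the genes tested. In mean level Gp2 moved from rank 57 of all symbols in controls to rank 7031 in mutants. Over 14 other ways of fitting, its log2 fold change lay between -5.94 and -5.56 and it passed the test in all 14.

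Umod encodes uromodulin, the main protein of normal urine, made in the thick ascending limb of the kidney. It is a paralog of Gp2, both ending in a zona pellucida domain, the module by which such proteins join into filaments. Umod lies at chr7:119462711-119479282 (GRCm38, ENSMUSG00000030963.6), on the same strand as Gp2 and 3.43 kb from it on the side of the start of Gp2. It had 12, 12 and 18 counts in controls and 1, 0 and 2 in mutants, or 1.80, 1.32 and 1.73 CPM against 0.0951, 0 and 0.199 CPM. All 3 controls were thus above all 3 mutants, with at most 18 counts in any library. The fitted log2 fold change was -3.81 ± 0.59 (SE), a value that depends on the prior count of edgeR at such low counts. From summed counts of 42 and 3, the ratio of control to mutant was 15.6, with a 95% exact binomial interval of 4.99 to 78.8 that covers counting error only. Its edgeR adjusted p of 0.00813 rose to 0.0656 without mutant 1. Umod passed the filter on low counts through its control libraries alone and had to differ, so this p is not support for a difference.

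Reads of Gp2 and of Umod can be told apart by sequence, because 0 of the 2037 stretches of 50 bases in annotated Gp2 transcripts and 0 of the 2891 in Umod occur in transcripts of any other gene. Of the exon bases of Umod, 539 overlap the antisense gene Gm44588, whose reads cannot be separated without a known strand setting. Of 6 markers of the thick ascending limb, Kcnj1, Cldn16 and Cldn19 were at 0 in all 6 libraries, and Slc12a1, its defining sodium transporter, had at most 1 count. The other 2, Egf, a growth factor (log2 fold change -0.73 ± 0.11, edgeR adjusted p = 0.00870), and Ptger3, a prostaglandin receptor (-1.44 ± 0.13, edgeR adjusted p = 0.000229), both fell. The summed level of the 6 genes was 79.1 to 88.5 CPM in controls and 35.7 to 46.3 CPM in mutants. Nearly all of this sum was Egf (mean 41.1 CPM in controls, 24.8 CPM in mutants) and Ptger3 (44.1 and 16.2 CPM).

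The promoters of Gp2 and Umod are shown because both neighbours fell, with those of Sycn and Cuzd1 as granule genes that did not pass the test. Each run holds the 250 bases before the start in RefSeq on GRCm38.p6, read 5′ to 3′ along the gene's strand, and capitals mark matches to CANNTG (the E-box) or TGGGAA on either strand (the core bound by Rbpj-type factors). Ptf1a joins both kinds of site, binding the E-box with a partner and recruiting Rbpj or Rbpjl to the other.
Gp2, chr7:119459273-119459522, minus strand: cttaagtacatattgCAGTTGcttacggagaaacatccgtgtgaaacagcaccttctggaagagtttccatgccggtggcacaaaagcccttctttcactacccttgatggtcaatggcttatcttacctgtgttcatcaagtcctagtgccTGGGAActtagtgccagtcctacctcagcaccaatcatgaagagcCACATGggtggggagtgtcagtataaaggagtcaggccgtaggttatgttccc
Umod, chr7:119479263-119479512, minus strand: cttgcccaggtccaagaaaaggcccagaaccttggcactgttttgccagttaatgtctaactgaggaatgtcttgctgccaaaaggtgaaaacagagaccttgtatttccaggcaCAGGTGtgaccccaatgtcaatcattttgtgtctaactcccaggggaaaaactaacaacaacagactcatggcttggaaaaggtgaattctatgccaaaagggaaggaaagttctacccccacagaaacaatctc
Sycn, chr7:28540635-28540884, plus strand: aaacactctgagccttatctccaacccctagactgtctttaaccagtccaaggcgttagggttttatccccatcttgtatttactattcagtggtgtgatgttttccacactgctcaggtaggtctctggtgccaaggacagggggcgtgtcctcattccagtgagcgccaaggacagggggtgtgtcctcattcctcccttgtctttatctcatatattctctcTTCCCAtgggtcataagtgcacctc
Cuzd1, chr7:131322293-131322542, minus strand: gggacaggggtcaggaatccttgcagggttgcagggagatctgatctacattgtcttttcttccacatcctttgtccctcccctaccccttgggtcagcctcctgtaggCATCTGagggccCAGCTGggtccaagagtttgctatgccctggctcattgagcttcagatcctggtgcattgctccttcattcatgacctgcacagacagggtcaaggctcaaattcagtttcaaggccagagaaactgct

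The Gp2 window held 2 E-boxes and 1 TGGGAA, Umod 1 E-box, Sycn 1 TGGGAA (as TTCCCA on this strand) and Cuzd1 2 E-boxes, 1 of them CAGCTG. RefSeq windows were matched for 6 of the 9 genes, those of Zg16, Erp27 and Tmed11 not being among them, and in the other 2, Pdia2 held 6 E-boxes and 1 TGGGAA and Tmed6 2 E-boxes. An E-box stood in 66.2% and TGGGAA in 21.6% of all 32851 RefSeq windows of this length. CATATG, a form of the E-box present in 3.46% of all windows, and AAGGTCA, a core of Nr5a2-type sites present in 4.08%, were matched in 0 of the 6 windows. CCACG, a core of endoplasmic reticulum stress elements present in 28.3% of all windows, was matched in Pdia2 and Tmed6, in Pdia2 overlapping an E-box. CAGCTG stood in 13.0% of all windows, counted within the E-box. These matches describe letters in the window and show no binding.

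Zg16 encodes a lectin that binds sugars of the proteoglycans in the granule matrix. It lies at chr7:127050156-127087328 on the minus strand (GRCm38, ENSMUSG00000049350.6). Zg16 was at 2594, 2384 and 2251 CPM in controls 1 to 3 and at 60.5, 60.8 and 139 CPM in mutants 1 to 3. Mutant 3 kept 2.30 times as much as mutant 1, and every mutant stayed far below every control. The log2 fold change was -4.79 ± 0.33 (SE, edgeR adjusted p = 4.94e-05), the seventh lowest among the genes tested. Its rank by mean level moved from 23 to 626. It passed the test in all 14 other fits, with log2 fold changes between -5.31 and -4.59. Across controls, Zg16 and Gp2 ran in opposite order, with control 1 highest in Zg16 and lowest in Gp2.

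Profiles over the 6 libraries were compared as the root mean square difference of log2 CPM after adding 0.5 CPM, each set to its control mean. Genes with a mean of at least 5 CPM over the libraries were taken. With control means set level, this distance depends largely on how near the falls are in size, so it is no separate sign of a shared profile. The 3 genes most like Gp2 were Zg16 (distance 0.73), Stra6, the receptor for retinol-binding protein (1.18), and Aqp12, an acinar aquaporin (1.20). The 3 most like Zg16 were Aqp12 (0.59), Gp2 (0.73) and Stra6 (0.81). Aqp12 had 182 ± 15.6 CPM in controls against 10.5 ± 3.69 CPM in mutants (SD, n = 3), and Stra6 had 16.6 ± 2.41 and 0.494 ± 0.397 CPM. Stra6 thus reached the mean of 5 CPM through its controls, and in mutants it was at about the added 0.5 CPM.

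Sycn encodes syncollin, a small protein attached to the inner face of the granule membrane that takes part in fusion. It lies at chr7:28540885-28542209 on the plus strand (GRCm38, ENSMUSG00000084174.3), inside the gene Samd4b of the other strand and without shared exon bases. Sycn was at 2148, 1808 and 2039 CPM in controls 1 to 3 and at 958, 1396 and 1682 CPM in mutants 1 to 3. All mutants lay below all controls, but mutant 3 came close to control 2, and the mutants spread 1.76-fold. The log2 fold change was -0.57 ± 0.19 (SE, edgeR adjusted p = 0.228), and DESeq2 gave an adjusted p of 0.0162 for the same size. By mean level Sycn had rank 25 of all symbols in controls and 22 in mutants.

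Cuzd1, a granule membrane protein with CUB and zona pellucida domains, had overlapping groups. It lies at chr7:131308554-131322292 on the minus strand (GRCm38, ENSMUSG00000040205.8). Cuzd1 was at 966, 605 and 686 CPM in controls 1 to 3 and at 966, 689 and 956 CPM in mutants 1 to 3. Control 1 and mutant 1 were level. The log2 fold change was 0.21 ± 0.20 (SE, edgeR adjusted p = 0.739), the sign was the same in all 14 other fits, and none passed the test.

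Other zona pellucida genes gave no call. Of the 11 listed besides Gp2, Umod and Cuzd1, 4 passed the filter, and 0 of these were called by edgeR, 0 by DESeq2 and 0 at an unadjusted p under 0.05. With 2.06% of all genes tested called by edgeR, 0 of 4 is no finding about this family. The DESeq2 shares were 1.89% lower and 0.691% higher, and those at an unadjusted p under 0.05 were 7.36% and 5.41%. Among them Dmbt1, a large mucin-like protein of the granule and mucosal surfaces, had 1886 ± 204 CPM in controls against 1589 ± 369 CPM in mutants (log2 fold change -0.25). Eng and Tgfbr3, coreceptors of the transforming growth factor family, had 0.18 and 0.17, and Zp3 had -0.07.

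Ratios between granule genes were compared within libraries. As a log2 ratio within each library after adding 0.5 CPM, Gp2 over Sycn was -1.70 ± 0.46 in controls and -6.77 ± 0.24 in mutants (SD, n = 3). Gp2 over Cuzd1 went from -0.26 ± 0.71 to -6.16 ± 0.53. Gp2 over Umod went from 8.19 ± 0.48 to 4.34 ± 0.43, a difference that is set in part by the added 0.5 CPM, since Umod was below it in mutants. For these 3 pairs the groups did not overlap, and each had p = 0.1 in a two-sided exact permutation test, which cannot go lower with 3 libraries a group (0.2 adjusted over the 6 pairs compared). Gp2 over Zg16 differed by -0.78 between groups (exact permutation p = 0.2, 0.3 adjusted), within overlapping values.

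Pdia2 encodes a protein disulfide isomerase typical of pancreas, and Erp27 a member of the same family that lacks the catalytic cysteines. Pdia2 lies at chr17:26195999-26199087 and Erp27 at chr6:136907311-136922180, both on the minus strand (GRCm38, ENSMUSG00000024184.15 and ENSMUSG00000030219.13). Pdia2 was at 2040.3, 1840.3 and 1833 CPM in controls 1 to 3 and at 1327, 1141 and 1364 CPM in mutants 1 to 3. Erp27 was at 544, 472 and 449.5 CPM in controls 1 to 3 and at 299, 342 and 317 CPM in mutants 1 to 3. In both genes the groups were apart, with Pdia2 1.49-fold and Erp27 1.53-fold lower in mutants.

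Erp27 fell by 0.61 ± 0.12 on the log2 scale (SE, edgeR adjusted p = 0.0316). Pdia2 had -0.58 ± 0.13 (edgeR adjusted p = 0.0586), and it passed with DESeq2 (adjusted p = 1.03e-05), with a robust dispersion in edgeR (0.0414) and with no filter on low counts in edgeR (0.0443). Both had a change of like size although only 1 was called, and the log2 ratio of Pdia2 to Erp27 was 1.96 ± 0.06 in controls and 2.00 ± 0.22 in mutants (SD, n = 3; exact permutation p = 0.9, 0.9 adjusted). The call of Erp27 was lost without control 1 (edgeR adjusted p = 0.0534), control 2 (0.120), control 3 (0.0644), mutant 1 (0.173) or mutant 3 (0.131), and with library totals alone as the scaling (0.0922).

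Other protein disulfide isomerases gave no call. Of 20 listed besides Pdia2 and Erp27, 17 passed the filter, with 0 called by edgeR, 0 by DESeq2 and 3 at an unadjusted p under 0.05. As edgeR called 2.06% of all genes tested, 0 of 17 is no finding about this family. DESeq2 called 1.89% lower and 0.691% higher of all genes tested, and 7.36% were lower and 5.41% higher at an unadjusted p under 0.05. The general isomerase P4hb had 1309.9 ± 148 CPM in controls and 1352 ± 45.6 CPM in mutants, a log2 fold change of 0.05. Pdia3 (0.01), Pdia6 (-0.03) and Pdia4 (-0.13), which fold glycoproteins and other cargo in most cells, were near 0. Agr2, an isomerase of mucus-secreting cells, had -0.87 ± 0.31 (edgeR adjusted p = 0.249). The median of these 17 genes was 0.01.

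Tmed6 and Tmed11 encode p24 proteins. Tmed6 lies at chr8:107061476-107065644 and Tmed11 at chr5:108777235-108795363, both on the minus strand (GRCm38, ENSMUSG00000031919.6 and ENSMUSG00000004821.1). Tmed6 was at 344, 317 and 304 CPM in controls 1 to 3 and at 197, 232 and 202 CPM in mutants 1 to 3, without overlap. Tmed6 fell by 0.61 ± 0.11 on the log2 scale (SE, edgeR adjusted p = 0.0216). The call of Tmed6 was lost without control 2 (edgeR adjusted p = 0.104), control 3 (0.0596), mutant 1 (0.135) or mutant 3 (0.114), and with library totals alone (0.0922).

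Tmed11 was at 7.81, 9.49 and 27.4 CPM in controls 1 to 3 and at 3.90, 11.1 and 10.8 CPM in mutants 1 to 3. Control 3 stood 3.50 times above control 1, and the other 5 libraries overlapped. The log2 fold change was -0.84 ± 0.48 (SE, edgeR adjusted p = 0.529), and it was -0.03 without control 3. Of the 50-base stretches of Tmed11, 18.1% also occur in the overlapping gene Vmn2r8, so its counts are uncertain. The other p24 genes, 9 of 9 tested, had log2 fold changes between -0.12 and 0.28 with a median of 0.09. Among these 9, 0 were called by edgeR, 0 by DESeq2 and 0 at an unadjusted p under 0.05, beside 2.06% by edgeR over all genes tested. The DESeq2 shares were 1.89% lower and 0.691% higher, and those at an unadjusted p under 0.05 were 7.36% and 5.41%. Tmed3, the most abundant of them, had 217 ± 31.7 CPM in controls and 210.4 ± 12.1 CPM in mutants (SD, n = 3).

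**Figure D3:**
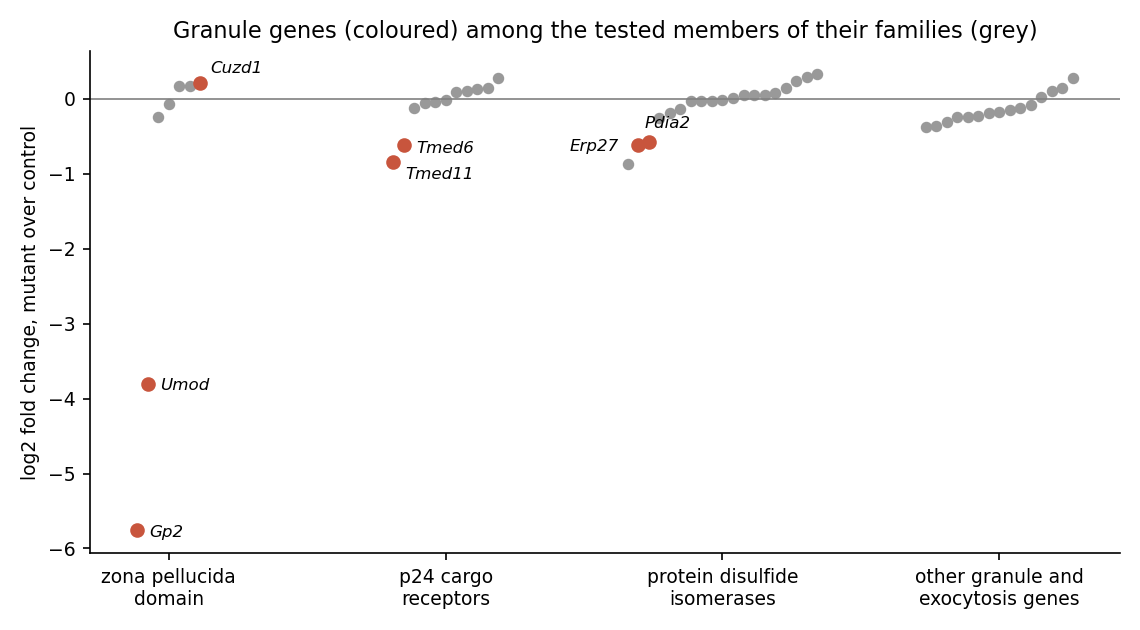
Log2 fold change, mutant over control (vertical axis), of the tested genes in 4 lists, sorted within each list, with the granule genes coloured and named and the other listed genes in grey. Gp2 and Umod lie far below the other zona pellucida genes, and Tmed6 and Tmed11 lie below the grey points of the p24 list, which run between -0.12 and 0.28. Pdia2 and Erp27 lie near the lower end of the isomerase list, above the grey point of Agr2 (-0.87).

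Other genes of granule membrane, content and exocytosis, with Dmbt1, Muc1, Spink1 and the sulfotransferases Tpst1 and Tpst2 among them, formed a further list, with 15 of 16 symbols in the table and all 15 tested. Of these, 0 were called by edgeR and 0 by DESeq2, with 1 higher and 3 lower at an unadjusted p under 0.05. Over all genes tested, edgeR called 2.06%, and DESeq2 called 1.89% lower and 0.691% higher. At an unadjusted p under 0.05, 7.36% were lower and 5.41% higher. Log2 fold changes ran from -0.37 for Rab27b, a small GTPase of secretory vesicles, to 0.28 for Tpst1, a tyrosine sulfotransferase, with a median of -0.17. Rab3d, the granule GTPase, had -0.17 ± 0.11, and Vamp8, a fusion protein of the granule membrane, had -0.19 ± 0.10.

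Among 10 acinar transcription factors, edgeR called 1 lower and 0 higher, beside 1.51% lower and 0.545% higher over all genes tested. At an unadjusted p under 0.05, 6 were lower and 0 higher, beside 7.36% and 5.41%. DESeq2 called 3 lower and 0 higher, beside 1.89% and 0.691%. The median log2 fold change of the 10 was -0.32, beside 0.00 over all genes tested. Spdef, a factor of secretory epithelia, fell by 0.74 ± 0.11 (SE, edgeR adjusted p = 0.00602). Ptf1a had 19.8 ± 1.84 CPM in controls against 14.9 ± 0.528 CPM in mutants (SD, n = 3; log2 fold change -0.40, edgeR adjusted p = 0.161). Rbpjl had 416 ± 59.3 CPM in controls against 288 ± 14.9 CPM in mutants (SD, n = 3; log2 fold change -0.53, edgeR adjusted p = 0.0863). Xbp1, also listed, had -0.42 (edgeR adjusted p = 0.0998). Bhlha15, a factor that organises granules in acinar cells, had -0.24 (edgeR adjusted p = 0.466), and Nr5a2, a nuclear receptor of acinar cells, had -0.09 (edgeR adjusted p = 0.810). The whole list ran from -0.74 to 0.09.

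Per length of annotated exon, the levels of the 9 genes could be ordered. In controls Sycn led with 3594 ± 312 CPM per kb (SD, n = 3), followed by Zg16 with 1917 ± 138 and Pdia2 with 1107 ± 68.3. Tmed6 (370 ± 23.5), Cuzd1 (333 ± 83.9) and Gp2 (315 ± 84.1) did not differ beyond their spread. Erp27 (164 ± 16.6), Tmed11 (19.5 ± 14.2) and Umod (0.585 ± 0.0931) followed, each without overlap with the one before. In mutants the order was Sycn (2420 ± 655), Pdia2 (742 ± 69.6), Cuzd1 (386 ± 69.6), Tmed6 (241 ± 21.6), Erp27 (107 ± 7.12), Zg16 (69.1 ± 36.1), Tmed11 (11.3 ± 5.34), Gp2 (5.83 ± 1.16) and Umod (0.0355 ± 0.0361). There Erp27 and Zg16 overlapped, as did Tmed11 and Gp2.

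Summed over the 9 genes, the level came to 8521 ± 529 CPM in controls against 4129.9 ± 481 CPM in mutants (SD, n = 3), 2.06 times lower. As a share of all counts this was 0.803 ± 0.0316% and 0.437 ± 0.0348%. Zg16 made up 28.3 ± 1.36% of the sum in controls and 2.04 ± 0.806% in mutants, and Gp2 7.46 ± 2.25% and 0.283 ± 0.0602%. Cuzd1 went from 8.76 ± 1.64% to 21.1 ± 3.83%, with Sycn at 32.3 ± 6.26% and Pdia2 at 31.1 ± 3.17% of the mutant sum. Without TMM scaling, the difference in the sum was -3664 CPM in place of -4391 CPM.

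**Figure D4:**
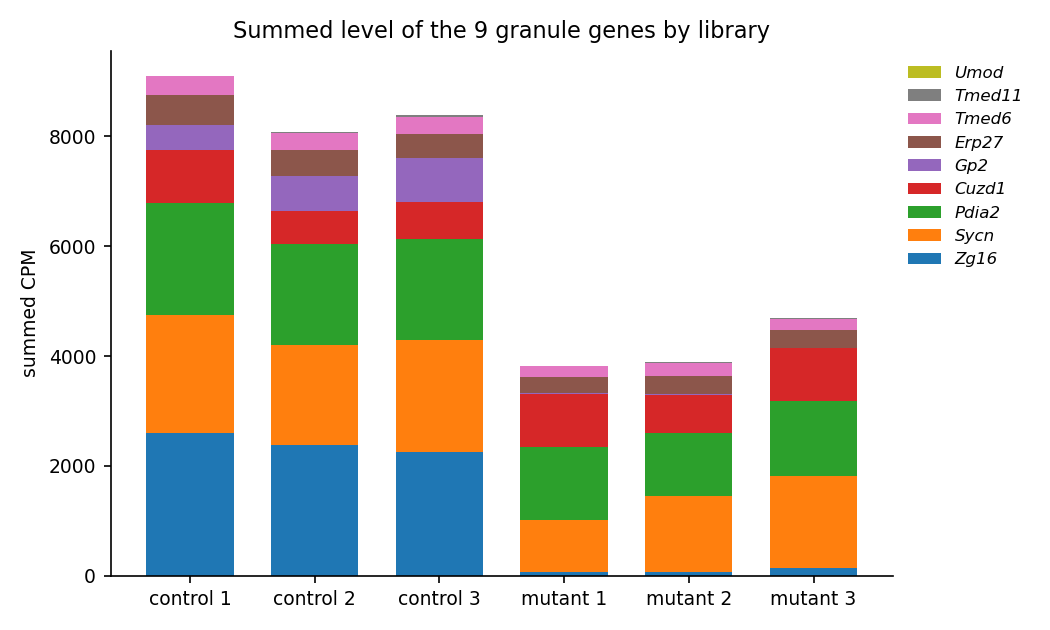
Summed CPM of the 9 granule genes (vertical axis) in each control and mutant library, stacked by gene; the bands of Umod and Tmed11 are too thin to see. Control bars reach 8073 to 9105 CPM and mutant bars 3821 to 4684 CPM, and the bands of Zg16 and Gp2 nearly vanish in mutants.

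Genes next to the granule genes on the chromosome gave no call other than that of Umod beside Gp2, which passed the filter through its control libraries alone and had to differ. For each of the 8 genes other than Umod, the 5 symbols on either side by start position were taken. Of these 79 neighbours besides Umod 60 were tested, with 0 called by edgeR, 1 by DESeq2 and 10 at an unadjusted p under 0.05. Over all genes tested, 2.06% were called by edgeR, and 7.36% were lower and 5.41% higher at an unadjusted p under 0.05. DESeq2 called 1.89% lower and 0.691% higher. At the edgeR share few calls would be found among 60 genes, so 0 called is no finding about neighbours. The DESeq2 and unadjusted counts were not tested against their shares, and no finding about neighbours is drawn from them. Around Gp2, the nearest gene on its other side, Gpr139, was 258 kb away and not tested. Beyond Umod followed Pdilt, an isomerase of the testis, at 27.3 kb from Gp2 and likewise too low to be tested. The neighbours of Zg16, all 10 tested, had log2 fold changes between -0.14 and 0.49, among them Kif22, a kinesin at 7.69 kb (0.34), and AI467606 at 4.03 kb (0.41). Next to Cuzd1, 5430419D17Rik at 2.10 kb had 1.12 (edgeR adjusted p = 0.0998) and was the gene that DESeq2 called.

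**Figure D5:**
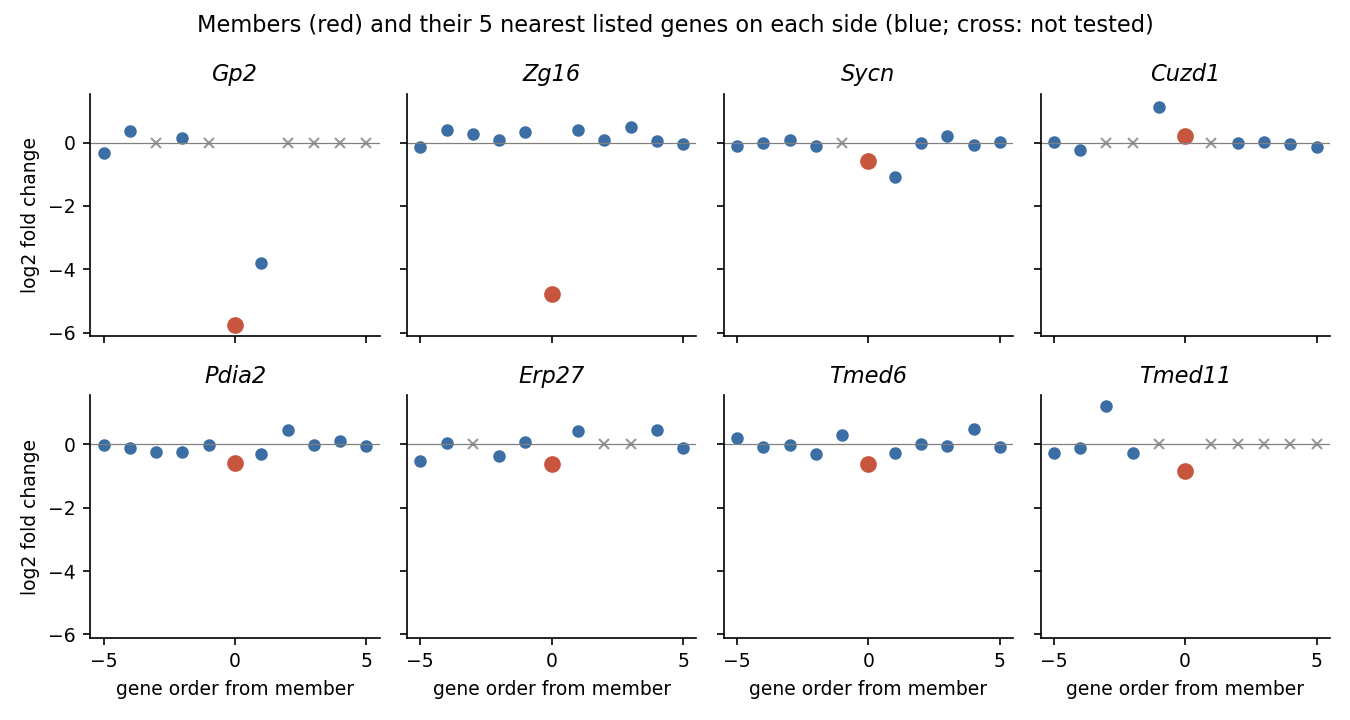
Log2 fold change, mutant over control (vertical axes), of 8 granule genes (red, at position 0) and of the 5 listed genes on either side by order along the chromosome (horizontal axes, blue; a grey cross at 0 marks a gene too low to be tested, not a value). Gp2 has Umod (-3.81) beside it, while the neighbours of Zg16 lie between -0.14 and 0.49.

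Markers of other cell types moved between the groups as follows, and their part in the results was not tested. The share called by edgeR over all genes tested was 2.06%. DESeq2 called 1.89% lower and 0.691% higher, and 7.36% were lower and 5.41% higher at an unadjusted p under 0.05. Of the 10 acinar markers edgeR called 1 lower, Cel, a lipase of the juice (log2 fold change -0.93, edgeR adjusted p = 0.00881). DESeq2 called 3 lower and 0 higher, and the same numbers held at an unadjusted p under 0.05. Their log2 fold changes ran from -0.93 to 0.49 with a median of -0.13. Duct markers, 10 of 10 tested with 0 called by edgeR (2 higher and 5 lower at an unadjusted p under 0.05, 1 higher and 2 lower by DESeq2), summed to 659 to 735 CPM in controls and 454 to 622 CPM in mutants. Endocrine markers, 10 of 10 tested with 0 called by edgeR and DESeq2 (2 at an unadjusted p under 0.05), summed to 3191 to 5204 and 3262 to 3556 CPM. Goblet and M cells of the intestine also make Zg16 and Gp2. Of their 8 markers 7 were in the table, Tff3 was at 0 in all libraries, Ccl20 had at most 1 count, and the list summed to 34.7 to 41.3 CPM in controls and 22.9 to 35.6 CPM in mutants. Vil1, a brush border protein (log2 fold change -1.44, edgeR adjusted p = 0.00336), and Spdef were its 2 called genes. DESeq2 called 2 lower and 0 higher, and 3 were lower and 1 higher at an unadjusted p under 0.05. Clca1 of this list had 1.03 (edgeR adjusted p = 0.210). Spdef, listed among the acinar factors as well, had 24.2 CPM in controls and 14.5 CPM in mutants, a large part of the sum. Liver markers, 8 of 8 in the table with 3 tested and Ahsg called higher, summed to 102 to 146 and 125 to 227 CPM, with Serpina1a at 0. Ahsg, at a mean of 0.147 CPM in controls and 32.0 CPM in mutants, passed the filter through its mutant libraries alone and had to differ. Adipocyte markers, 5 of 7 tested with Fabp4 called lower, summed to 90.2 to 222 CPM in controls and 40.9 to 70.8 CPM in mutants. Erythroid markers, 3 of 3 in the table tested with 0 called by edgeR and DESeq2 (3 at an unadjusted p under 0.05), summed to 21.4 to 153 and 14.3 to 37.3 CPM. Macrophage markers, 7 of 7 in the table tested with 2 higher (C1qc and Mrc1) and 1 lower (C1qa), summed to 231 to 275 and 276 to 383 CPM.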

How the data were processed

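RNA of whole pancreas was sequenced in 3 control and 3 mutant libraries. The authors deposited whole-number counts per gene symbol, 1 table per library, per the file headers. The submitters' processing notes name build mm10, HTSeq 0.6.1p1, STAR, cutadapt 1.13 and DESeq2, with no roles; annotation and strand setting were not given in the sources used here. No row without a gene name was found. Groups and replicate numbers came from the sample titles. The counts of the whole table were tested with edgeR 4.0.16 in R 4.3.3 by its quasi-likelihood test (TMM scaling over all counts, filterByExpr, no covariate), adjusted over 13017 genes by the Benjamini-Hochberg method at a threshold of 0.05. CPM were computed from TMM-scaled library sizes. The SE is the log2 fold change divided by the root of the F statistic. On simulated counts with 200 changed genes, the fit recovered 100% of log2 changes of 1.5 and of 3.0 (12886 genes), with 4.31% false among the calls. The simulation gave every gene the same dispersion, changed only genes above a minimum level, and held as many rises as falls. It thus checks that the fit runs properly and does not measure its power on the real libraries or for smaller changes.

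Replicates of a group differed by a chi-square of 5.83 to 20.5 per degree of freedom over genes with at least 20 counts. No library was thus a mere recount of another, and all 6 were kept. Among controls, the pairs with control 1 had 20.5 and 18.9, against 6.14 for controls 2 and 3. Pairs of mutants had 5.83 to 11.7. Nothing states separate litters, so p-values measure only the spread between these libraries. At this depth 1 CPM is 6.66 to 10.5 counts. Positions, exon lengths and shared 50-base stretches were read from GENCODE M21 (GRCm38, which mm10 denotes), and 20918 of 23337 symbols matched 1 gene; promoters came from RefSeq on GRCm38.p6. The members and gene lists (zona pellucida domain, p24, protein disulfide isomerase, other granule and exocytosis genes, acinar transcription factors, and markers of acinar, duct, endocrine, kidney thick ascending limb, intestine, liver, erythroid, macrophage and adipocyte cells) were chosen with earlier results of these data known. All members, Prox1, Ptf1a, up to 3 called genes per list, the 3 profiles most like Gp2 and Zg16, and called or adjacent neighbours were named by rule, and further genes were picked with their values in view. Alternatives were DESeq2 1.42.0, other scalings and filters, a robust dispersion, a replicate block and leaving out each library.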

Additional observations from a re-analysis of the deposited data

How the results depend on the processing

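Gp2, Zg16, Sycn, Cuzd1, Pdia2, Erp27, Tmed6, Tmed11 and Umod kept their sign in all 14 alternatives, and Gp2 and Zg16 their call. Umod lost its call without mutant 1 (edgeR adjusted p = 0.0656), and the other changes of call concerned Sycn, Pdia2, Erp27 and Tmed6. With DESeq2, Sycn (-0.57, adjusted p = 0.0162) and Pdia2 (-0.58) passed, and Pdia2 passed with no filter on low counts (-0.58) and a robust dispersion (-0.58) in edgeR. With library totals alone the median of all genes moved to 0.17, and the called genes were 190 higher and 130 lower against 71 and 197. Erp27 and Tmed6 had -0.44 and -0.44 (-0.61 and -0.61 relative to that median) and missed the threshold. Called granule genes were 3 in place of 5, and the summed level differed by -3664 CPM. The pathway lists, which hold granule genes too, had 3 called genes in place of 5. Besides granule genes, only Spdef was called in these lists in the main fit. Leaving out 1 library at a time gave 125 to 301 called genes, 2 to 5 called granule genes, and log2 fold changes of -0.67 to -0.53 for Erp27, -0.68 to -0.56 for Tmed6 and -4.63 to -3.34 for Umod, with a log2 ratio difference of -0.044 to 0.16 for Pdia2 over Erp27 and -0.52 to 0.44 for Tmed6 over Tmed11, which changed sign.

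The replicate numbers give no pairing: deviations of same-numbered libraries correlated at 0.06, 0.01 and -0.06 across genes. With the replicate number as a block, 241 genes and 3 granule genes were called, and Erp27 (-0.61, edgeR adjusted p = 0.0898) and Tmed6 (-0.62, edgeR adjusted p = 0.0598) missed the threshold. The cause of these shifts was not tested. Counting limits Umod. For the other genes the limit is the number of libraries and their spread, which in the controls was widest in Tmed11.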
